A study of Mus musculus with 18 samples.

Results

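The class II odorant receptor (OR) genes that share chromosome 10 with the trace amine-associated receptor (Taar) genes were examined in olfactory sensory neurons (OSNs) sorted with or without a Taar reporter. Members were the rows of the expression table named Olfr763 to Olfr827, pseudogene symbols left out. They came to 54 of the 1097 OR genes and of the 23359 gene symbols in the table, and 11 of the 65 numbers in that range had no row. All 18 libraries were used. In the GENCODE M21 annotation of GRCm38 (mm10), the 54 genes lie on chromosome 10 between 129010791 and 130214403, with 24 on the plus strand and 30 on the minus strand. The 15 Taar genes lie on the same chromosome between 23920356 and 24109534, 104.9 Mb away. Of the 11 other OR genes of chromosome 10, Olfr247 sits among the 54, Olfr9 just before them, and the remaining 9 far upstream.

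ORs are G protein-coupled receptors through which OSNs of the main olfactory epithelium detect odorants. A mature OSN typically transcribes a single receptor gene from a single allele. Class II genes, the tetrapod class, form clusters on many chromosomes, whereas the fish-like class I genes sit in a single cluster on chromosome 7. Taar genes are a small separate receptor family tuned to amines, and OSNs that choose a Taar gene use it in place of an OR.

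Cells came from mice, C57BL/6 per the labels and a mixed C57BL/6J and 129 background per the study's reporting summary, carrying TAAR5-Cre&L10-GFP (the Taar5 line) or TAAR6-Cre&ZsGreen (the Taar6 line). Cre follows the stop codon of the targeted Taar gene behind an internal ribosome entry site, so a Cre-dependent reporter, L10-GFP or ZsGreen, marks cells that transcribe or once transcribed that gene. The Taar5 line, aged postnatal days 11 to 14, gave 7 libraries of cells with the reporter (Taar5+) and 9 of cells without it (controls). The Taar6 line, aged postnatal days 16 to 17, gave 1 Taar6+ library and 1 control. Negative cells were whatever lacked the reporter, not OR OSNs alone, and the reporting summary also gives an older age than the labels.

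Levels are in TPM, the share of a library's transcripts per 1000000 after correction for gene length, so the depth behind a value is unknown and a gene at 0 is described only as listed at 0. In a pool of cells, fewer cells expressing a receptor and less RNA per cell cannot be told apart. Summed Taar TPM was 1517 to 7804 in the 7 Taar5+ libraries and 94.5 to 403 in the 9 controls, with the Taar values of control replicate 2 copied from replicate 1 in the table (13 of 13 above 0 identical). The mature OSN markers summed to 13933 to 25414 TPM in Taar5+ libraries and 5476 to 26924 TPM in controls, and none of the 6 was called. A pair of libraries stood apart. Control replicate 2 had 5891 genes above 0, against 11259 to 16888 in the other 8 controls. It also had the lowest mature OSN sum (5476 TPM) and the highest sustentacular cell marker sum of the controls (9078 TPM, against 28.7 to 721 TPM). Taar5+ replicate 5 had the most genes above 0 (17653), the lowest Taar sum of its group and the highest sum of sustentacular cell markers (7417 TPM, against 61.4 to 1755 TPM in the other 6). The members' summed TPM, their share of OR TPM and the number of receptors called are given with and without both.

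In GENCODE M21 all 54 receptors carry their coding sequence in 1 exon, 924 to 984 bases long without the stop codon (median 936), as is usual for ORs. Over the 1431 pairs of members, coding identity ran from 59.1% to 99.2%, with a median of 69.0%.

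Members together were at a much lower level in Taar5+ libraries. Their summed TPM was 754, 2.75, 967, 770, 1038, 762, 1266, 387 and 862 in control replicates 1 to 9. In Taar5+ replicates 1 to 7 it was 101, 4.68, 16.5, 0.181, 348, 69.5 and 10.7. Every Taar5+ library lay below every control other than replicate 2, and replicate 2 fell within the Taar5+ range. The mean was 78.6 ± 125 TPM (SD, n = 7) in Taar5+ libraries and 757 ± 371 TPM (SD, n = 9) in controls, or 10.4% of control. The other 1043 OR genes came to 10.1% of control. Without Taar5+ replicate 5 and control replicate 2 the members were at 3.96% of control and the other OR genes at 5.35%. On the log2(sum + 1) scale the member sum differed by -4.28 over all libraries and by -5.79 without the pair.

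**Figure D1:**
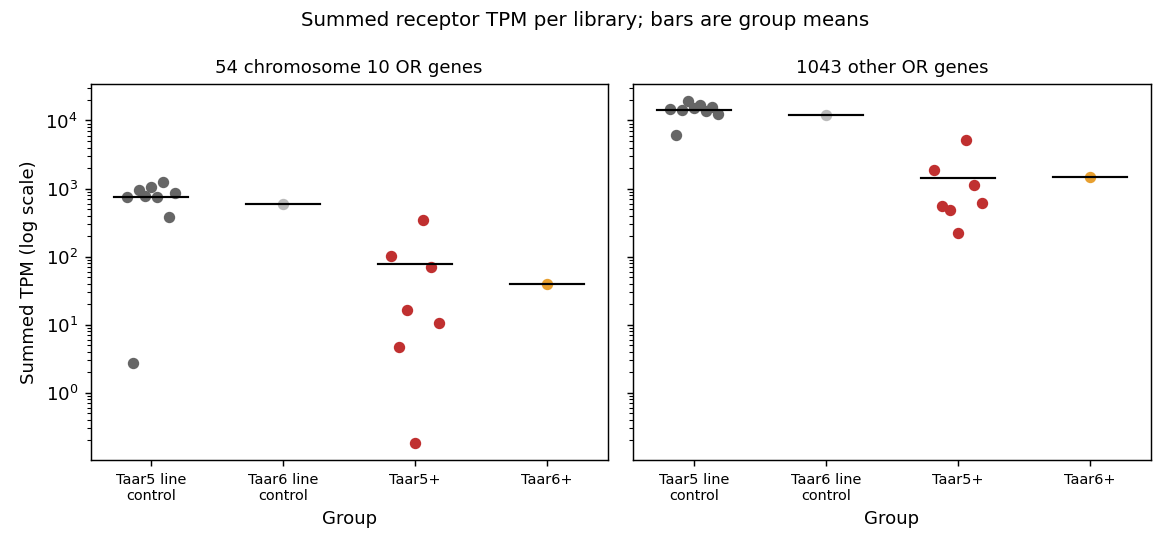
Summed TPM per library (log scale) of the 54 chromosome 10 OR genes (left) and the 1043 other OR genes (right). Points are libraries, grouped by line and reporter, and bars are group means; 6 of 7 Taar5+ libraries had a member sum of at most 101 TPM, and control replicate 2 is the control at 2.75 TPM on the left.

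The members' share of all OR TPM overlapped between the groups. It was 0.0805% to 6.30% in Taar5+ libraries (3.28% ± 2.48, SD, n = 7) and 0.0445% to 8.46% in controls (4.78% ± 2.50, SD, n = 9). The difference in means, -1.49 percentage points, was smaller than the pooled SD between libraries (2.49). Without Taar5+ replicate 5 and control replicate 2 the share was 2.78% ± 2.29 (SD, n = 6) and 5.37% ± 1.89 (SD, n = 8), and the difference was -2.59 percentage points, larger than that SD, with ranges that still overlapped (0.0805% to 5.74% and 2.42% to 8.46%). Control replicate 2 held 6174 TPM of OR transcripts, of which the members made 2.75 TPM, the lowest share of any library.

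**Figure D2:**
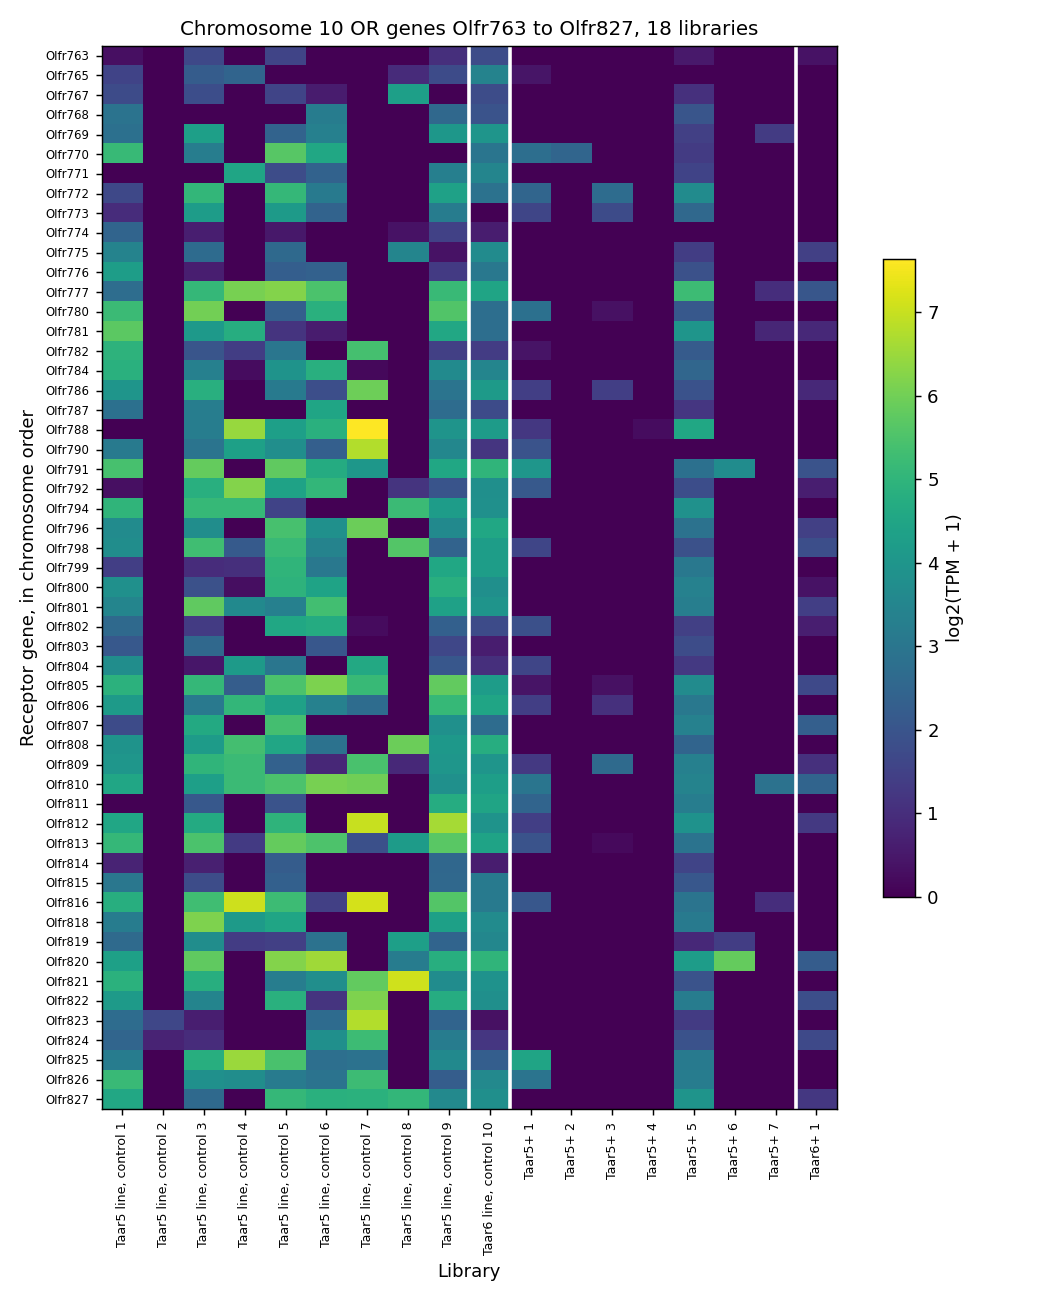
Level of each of the 54 receptors, log2(TPM + 1), in the 18 libraries. Rows follow the chromosome from Olfr763 to Olfr827 and white lines separate the groups; most cells are at 0 in Taar5+ libraries other than replicate 5, where 51 receptors were above 0, and control replicate 2 shows 2.

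Fewer receptors were listed above 0 in Taar5+ cells, a pattern shared with the other OR genes. On average 24.6% of the members were above 0 in Taar5+ libraries and 63.6% in controls. For the other OR genes these means were 24.3% and 55.8%. The 9 controls had 51, 2, 52, 26, 48, 41, 23, 14 and 52 of the 54 above 0. The 7 Taar5+ libraries had 24, 1, 8, 1, 51, 3 and 5. The number of genes of any kind above 0 did not separate the groups in the same way: it was 9784 to 17653 in Taar5+ libraries and 5891 to 16888 in controls. Control replicates 7 and 8, with 11603 and 11517 genes above 0, had 23 and 14 receptors. Taar5+ replicates 2 and 6, with 11234 and 11304 genes, had 1 and 3. Of the other OR genes, 29.7% and 27.6% were above 0 in those controls and 3.93% and 6.90% in those Taar5+ libraries. Olfr774 was the single receptor listed at 0 in all 7 Taar5+ libraries. In the 6 Taar5+ libraries other than replicate 5, 25 receptors were listed at 0 throughout, and 24 receptors were above 0 in replicate 5 alone among Taar5+ libraries. The other OR genes showed the same contrast, with 91.3% above 0 in replicate 5 and 1.92% to 36.5% in those 6.

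**Figure D3:**
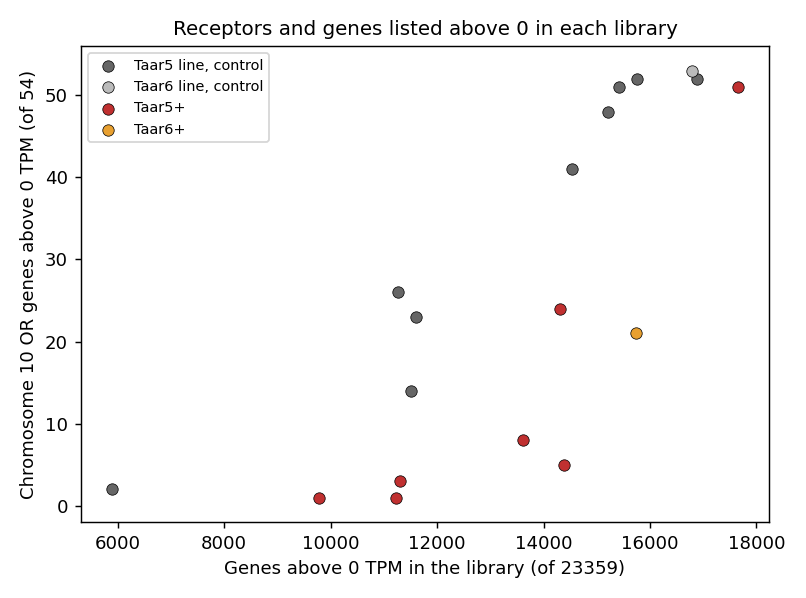
Receptors above 0 TPM (of 54) against genes above 0 TPM (of 23359), 1 point per library. The 3 controls with 11259 to 11603 genes above 0 had 14 to 26 receptors above 0, and the 2 Taar5+ libraries with 11234 and 11304 genes had 1 and 3.

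Which receptor was highest differed from library to library. Each of the 9 controls had a different top receptor: Olfr781, Olfr823, Olfr818, Olfr816, Olfr777, Olfr820, Olfr788, Olfr821 and Olfr812 in replicates 1 to 9. Each of the 7 Taar5+ libraries also had its own: Olfr825, Olfr770, Olfr772, Olfr788, Olfr777, Olfr820 and Olfr810. The top receptor made 6.84% to 75% of the member sum in controls and 10.6% to 100% in Taar5+ libraries. The coefficient of variation across the 9 controls had a median of 135% over the members, 142% over other OR genes and 92.6% over all genes. Without control replicate 2 these medians were 123%, 130% and 78.6%. Only 2 receptors, Olfr809 and Olfr813, were above 0 in all of the other 8 controls.

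Mean control levels also differed along the cluster, with a wide spread between libraries. By mean control TPM, 5 receptors reached 30 or more, 27 lay between 10 and 30 and 22 below 10. In 6 consecutive segments of 9 genes, the first, Olfr763 to Olfr773, made 6.10% of the summed mean control TPM of the members. The others made 13.5% (Olfr774 to Olfr786), 21.4% (Olfr787 to Olfr799), 15.0% (Olfr800 to Olfr808), 23.3% (Olfr809 to Olfr818) and 20.8% (Olfr819 to Olfr827). In the Taar6 line control the 6 shares were 9.39%, 13.7%, 23.2%, 17.3%, 19.8% and 16.5%, again lowest in the first segment. Across the 54 receptors, mean control levels of the Taar5 line and levels in the Taar6 line control had a Pearson r of 0.54 on the log2(TPM + 1) scale and a Spearman rho of 0.56. These are correlations across genes of shared gene length and mapping, given as a description.

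The receptors with the highest mean control TPM were, in order, Olfr816, Olfr788, Olfr812, Olfr821, Olfr820, Olfr805, Olfr810, Olfr777, Olfr813 and Olfr791. Olfr816 was listed at 0 in 2 controls, had a median of 37.1 TPM and reached 142 TPM. In Taar5+ libraries it was at 3.19, 6.64 and 1.01 TPM in replicates 1, 5 and 7 and listed at 0 in the other 4. The 7 controls in which it was above 0 included 1 (1.71 TPM) within the Taar5+ range. Olfr788 had a control median of 14.4 TPM and a highest value of 199 TPM, with 3 controls at 0. It was at 1.35, 0.181 and 22.3 TPM in Taar5+ replicates 1, 4 and 5. Olfr812 ran from 0 in 4 controls to 127 TPM, with a median of 22.2 TPM. Its Taar5+ values above 0 were 1.69 and 14.1 TPM.

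Olfr821 was above 0 in 7 of 9 controls, with a median of 12.8 TPM and a highest value of 135 TPM. Among Taar5+ libraries only replicate 5 showed it, at 2.85 TPM. The groups overlapped only through the 2 controls listed at 0. Olfr805 had a control median of 33.4 TPM and a highest value of 68.9 TPM, with 2 controls at 0. Its Taar5+ values above 0 were 0.326, 0.268 and 12.0 TPM. Olfr813 was above 0 in 8 of 9 controls, with a median of 32.9 TPM and a highest value of 56.1 TPM, and was at 2.88, 0.139 and 6.59 TPM in Taar5+ replicates 1, 3 and 5. Olfr808, of lower control level (median 15.8 TPM, highest 59.7 TPM), was at 4.57 TPM in Taar5+ replicate 5 and listed at 0 in the other 6.

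Olfr820, Olfr777 and Olfr791 had the highest mean TPM in Taar5+ libraries, each through 1 to 3 libraries. Olfr820 was at 17.6 and 55.7 TPM in Taar5+ replicates 5 and 6 and at 0 in the other 5, against a control median of 19.2 TPM and a highest control value of 93.2 TPM. Olfr777 was at 36.7 TPM in replicate 5 and 1.02 TPM in replicate 7, against a control median of 33.0 TPM. Olfr791 was at 15.1, 6.10 and 12.2 TPM in replicates 1, 5 and 6, against a control median of 22.6 TPM. In all, 11 of the 54 receptors had a Taar5+ value above their own control mean, and for 42 of the 54 the highest Taar5+ value was that of replicate 5. The other OR genes also summed highest there, to 5177 TPM, against at most 1899 TPM in the other 6 Taar5+ libraries. Olfr810 was above 0 in Taar5+ replicates 1, 5 and 7, at 6.88, 9.69 and 6.34 TPM, against a control median of 22.0 TPM.

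Differences between the 7 Taar5+ libraries and the 9 controls were tested gene by gene with limma on log2(TPM + 1). Only genes that reached 1 TPM in 7 or more of the 16 libraries entered, a filter that 33 of the 54 receptors met. Since most met it through the controls, the direction of those 33 was partly fixed by the filter. None of the 33 passed an adjusted p under 0.05 (Benjamini-Hochberg over all 12502 tested genes, of which 0.024% were called lower). At an unadjusted p under 0.05, 25 of the 33 were lower, against 5.38% of all tested genes and 296 of 442 other OR genes. Without any filter all 54 receptors had a negative log2 fold change, with a median of -1.81. A negative value was found for 97.8% of other OR genes, with a median of -1.44, and for 52.6% of all genes. On chromosome 2, which had 280 OR genes in the table, the median was -1.37, and on chromosome 9 it was -1.10. On this scale genes of low level show smaller differences, and the members' mean control TPM had a median of 13.0, against 7.65 for other OR genes, 7.19 on chromosome 2 and 5.35 on chromosome 9. Among genes that met the filter the medians lay close together, at -2.27 for members, -2.14 for other OR genes, -2.14 on chromosome 2 and -2.19 on chromosome 9.

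**Figure D4:**
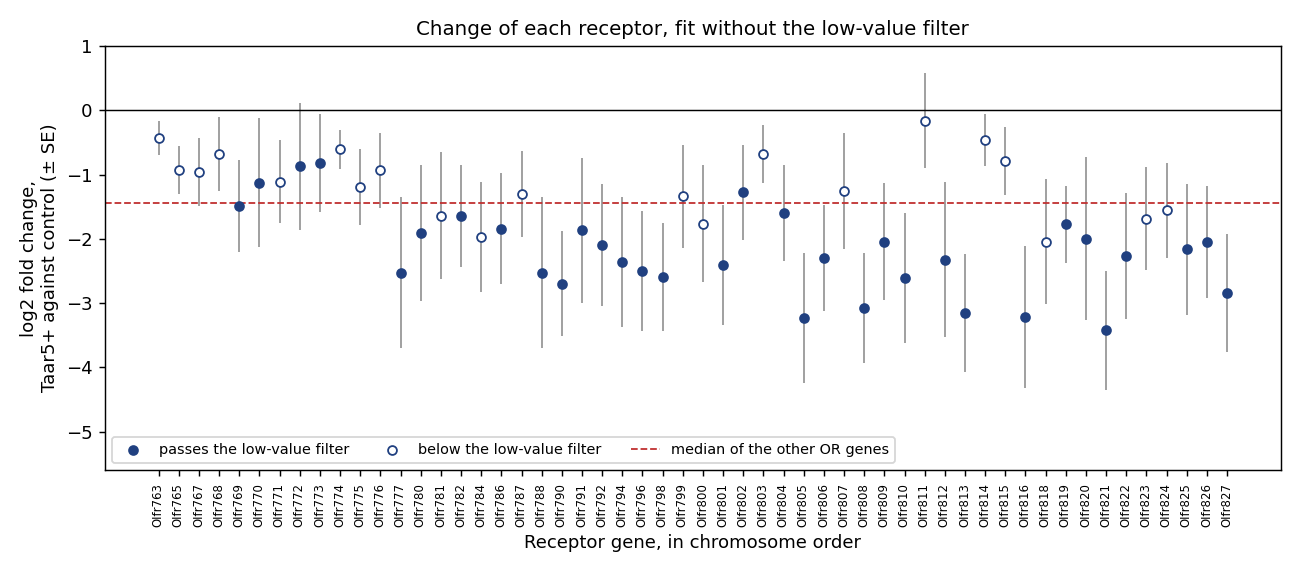
Log2 fold change of each receptor, Taar5+ against control, ± SE, in chromosome order, from the fit without the low-value filter (7 and 9 libraries). All 54 points lie below 0, filled points are the 33 that met the filter, and the dashed line is the median of the other OR genes at -1.44.

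The most negative log2 fold changes belonged to Olfr821 (-3.42 ± 0.88, SE; limma adjusted p = 0.191), Olfr805 (-3.23 ± 0.96; limma adjusted p = 0.264), Olfr816 (-3.21 ± 1.05; limma adjusted p = 0.320), Olfr813 (-3.16 ± 0.88; limma adjusted p = 0.217) and Olfr808 (-3.08 ± 0.82; limma adjusted p = 0.205). The least negative of the 33 were Olfr769 (-1.49 ± 0.70), Olfr802 (-1.28 ± 0.72), Olfr770 (-1.13 ± 0.95), Olfr772 (-0.87 ± 0.93) and Olfr773 (-0.82 ± 0.73), with limma adjusted p from 0.692 to 0.955. The last gene of the cluster, Olfr827, had a log2 fold change of -2.84 ± 0.87 (limma adjusted p = 0.294). It was above 0 in 7 of 9 controls, with a median of 23.0 TPM, and in Taar5+ replicate 5 alone, at 14.6 TPM. The first gene, Olfr763, did not meet the filter. It was at most 2.13 TPM in any control and 0.441 TPM in Taar5+ replicate 5, the single Taar5+ library that showed it.

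The number of calls turned on single libraries. Without control replicate 2, 5 of 33 receptors passed an adjusted p under 0.05 in limma, all lower (Olfr790, Olfr805, Olfr808, Olfr813 and Olfr821), against 0.939% of all tested genes called lower and 69 of 434 other OR genes. Without control replicate 4, 1 of 29 tested receptors passed (Olfr821), against 31 of all 12325 tested genes called in either direction. Without control replicate 2 and Taar5+ replicate 5 together, an alternative chosen after these libraries were seen to stand apart, 21 receptors met the filter and 11 were called, against 2.42% of all tested genes and 124 of 284 other OR genes. They were Olfr777, Olfr790, Olfr798, Olfr805, Olfr806, Olfr808, Olfr810, Olfr813, Olfr816, Olfr821 and Olfr827. These receptors met the filter mainly through the controls, so a lower value was partly fixed in advance and the calls give no independent support. Olfr808, Olfr821 and Olfr827 were listed at 0 in all 6 remaining Taar5+ libraries, and Olfr805 reached at most 0.326 TPM there. In that fit Olfr805 had a log2 fold change of -4.23 (limma adjusted p = 0.00577) and Olfr813 of -4.01 (limma adjusted p = 0.00501). The same limit holds for both values. With array weights, which give libraries that deviate a smaller weight, 32 of 33 passed, against 9.34% of all tested genes and 391 of 442 other OR genes. With quantile normalization 5 of 33 passed, against 0.592% and 50 of 442.

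No receptor had every Taar5+ library below every control, a pattern shown by 0 of the other OR genes and by 0.0261% of all genes. Without control replicate 2 and Taar5+ replicate 5, still none of the 54 did, against 20 of the 1043 other OR genes and 0.542% of all genes. Each receptor was listed at 0 in some remaining control or was above 0 in a Taar5+ library that reached a control's value.

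The Taar6 line had 1 library of each kind, so its differences have no replicate check. The members summed to 40.2 TPM in the Taar6+ library and to 591 TPM in its control, or 6.80% of control, and the other OR genes came to 12.2%. In Taar6+ cells 21 receptors were above 0, against 53 in the control. Of the 53 receptors above 0 in either library, 52 were lower in Taar6+ cells and 1 was higher (Olfr824, 2.25 against 1.30 TPM). By the same count 954 of 979 other OR genes and 11848 of 17312 genes of any kind were lower. The difference was at least 1 on the log2(TPM + 1) scale for 47 of the 53, against 12.1% of all genes and 87.6% of other OR genes. Its median was -2.77 over the members and -2.36 over other OR genes.

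The highest receptors in the Taar6 line control were Olfr791 and Olfr820, both at 31.1 TPM, and Olfr808 at 26.3 TPM. In Taar6+ cells they were at 2.85 TPM, 3.70 TPM and 0. The top receptor of the Taar6+ library was Olfr810, at 4.55 TPM, which was also the top receptor of Taar5+ replicate 7. Olfr821, Olfr813, Olfr816 and Olfr788 were listed at 0 in Taar6+ cells and at 13.8, 20.4, 7.90 and 17.4 TPM in the control.

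Near-identical neighbours limit how far a value belongs to 1 gene. Of the 54 receptors, 8 shared no run of 50 bases with any other annotated transcript and 37 shared under 10% of their runs, but 9 shared at least 30%. Among the 10 receptors with the highest control TPM, Olfr805 shared the most, 10.3%, mainly with its neighbour Olfr806. The closest pair was Olfr772 and Olfr773, adjacent on the minus strand, with 926 of 933 coding bases identical and a longest identical run of 509 bases. Olfr773, annotated from its coding exon alone, shared 78.8% of its runs, all of them with Olfr772. Olfr772 shared 32.8% of its runs with any other gene (955 of 2913), 699 of them with Olfr773. The 120 coding bases with most differences are shown for both, with differing bases in capitals, at chr10:129174203-129174322 for Olfr772 and chr10:129186603-129186722 for Olfr773.
Olfr772: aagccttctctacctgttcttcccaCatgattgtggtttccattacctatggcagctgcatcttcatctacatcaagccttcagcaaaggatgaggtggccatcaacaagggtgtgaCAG
Olfr773: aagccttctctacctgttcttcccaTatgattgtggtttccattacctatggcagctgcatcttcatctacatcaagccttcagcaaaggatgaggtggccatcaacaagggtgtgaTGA

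The TPM of this pair moved in a nearly fixed ratio. Olfr773 was 0.419 to 0.579 times Olfr772 in the 8 libraries with both above 0, and the pair was above 0 or at 0 together in 17 of 18 libraries. The exception was the Taar6 line control, with Olfr772 at 6.30 TPM and Olfr773 at 0. Of 1367 pairs of receptors with at least 5 such libraries, this pair had the smallest spread of the log2 ratio (SD 0.19). How the authors divided reads that match several genes is not given in the sources used here, so Olfr772 and Olfr773 cannot be counted as separate observations among the least negative receptors.

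Other close pairs did not keep a fixed ratio. Olfr823 and Olfr824 had 933 of 945 coding bases identical, and Olfr824 was 0.333 to 5.0 times Olfr823 over 8 libraries. Olfr814 and Olfr815, with 909 of 930 aligned coding bases identical, had a ratio of 1.03 to 14.6 over 6 libraries. The 120 coding bases with most differences between Olfr823 (chr10:130112437-130112556, minus strand) and Olfr824 (chr10:130126704-130126823, minus strand) show 6 differing bases, in capitals, against 4 in the window of the Olfr772 pair.
Olfr823: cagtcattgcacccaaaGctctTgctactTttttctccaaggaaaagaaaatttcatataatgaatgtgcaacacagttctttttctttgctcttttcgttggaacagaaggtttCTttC
Olfr824: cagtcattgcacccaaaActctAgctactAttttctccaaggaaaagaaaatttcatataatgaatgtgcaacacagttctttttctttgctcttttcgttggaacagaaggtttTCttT

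**Figure D5:**
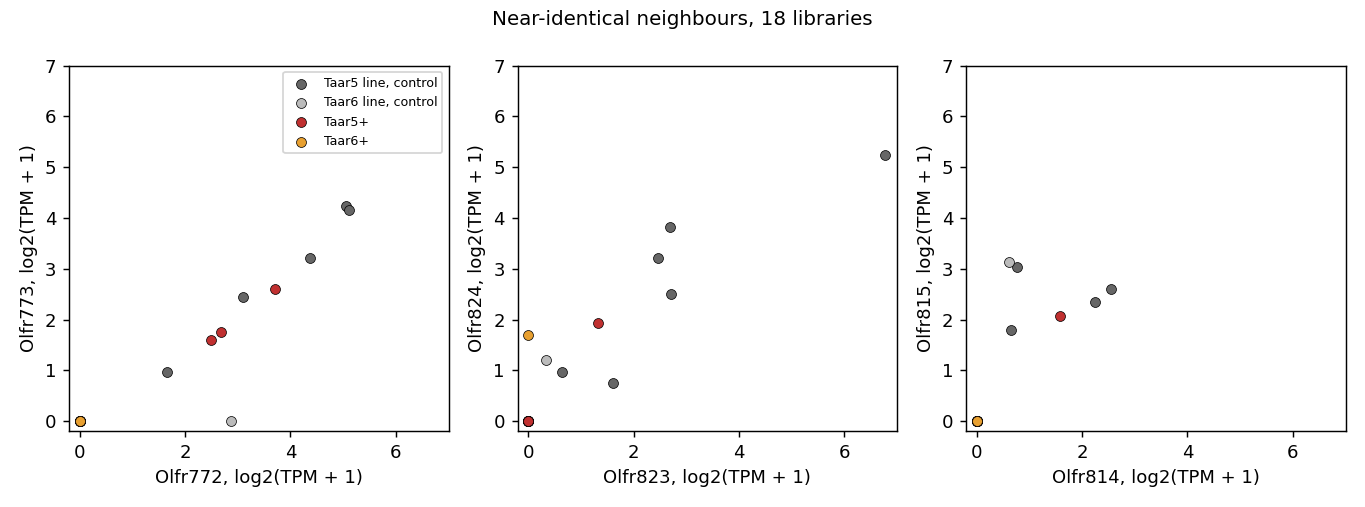
Log2(TPM + 1) of 3 pairs of near-identical neighbouring receptors, 1 point per library and panel, coloured by group. Olfr772 and Olfr773 lie on a line apart from the Taar6 line control, whereas Olfr823 with Olfr824 and Olfr814 with Olfr815 scatter.

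Genes linked to receptor choice and to other cell types were read beside these values. Of 16 factors linked to receptor choice, among them Lhx2, Ldb1 and Ebf1, whose products bind OR enhancers, none was called by limma, and 1 of the 16 had an unadjusted p under 0.05. That 1 was Eif2ak3, a kinase of the unfolded protein response, with a log2 fold change of 1.62 ± 0.58 (limma adjusted p = 0.401). The 3 horizontal basal cell markers Krt5, Krt14 and Trp63 were each lower at an unadjusted p under 0.05, and none passed adjustment. Their summed TPM was 0 to 181 in Taar5+ libraries and 0 to 123 in controls, or 0 to 17.5 and 60.1 to 123 without Taar5+ replicate 5 and control replicate 2. Of the blood and immune markers, 2 of 5 tested were lower at an unadjusted p under 0.05, Lyz2 (log2 fold change -3.70) and Ptprc (-1.24), and the list summed to 18.9 to 1554 TPM in Taar5+ libraries and 153 to 6358 TPM in controls. Of the microvillar cell markers, 1 of 2 tested was, Ascl3 (-2.81), with sums of 0.266 to 175 TPM and 12.6 to 608 TPM. None of these passed adjustment, and no marker of the progenitor, immature OSN, sustentacular or ensheathing glia lists had an unadjusted p under 0.05. The part of cell makeup in the receptor differences was not tested.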

How the data were processed

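The authors made Smart-seq2 libraries from sorted cells, with no molecular identifiers. Per the labels and methods, reads were trimmed with Trimmomatic 0.36, mapped to mm10 with HISAT2 2.1.0 and quantified with Cufflinks 2.2.1. The deposited values are TPM. The annotation and the treatment of strand and of reads that match several genes are not given in the sources used here. TPM keep no depth, so precision rests on the number of libraries. Labels do not say whether libraries came from separate animals, so p-values measure the spread between these libraries only.

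Repeated symbols were summed (488 rows, none a member). limma 3.58.1 in R 4.3.3 was run on log2(TPM + 1) with a mean-variance trend, a filter of 1 TPM in 7 of 16 libraries and Benjamini-Hochberg adjustment. Fold changes on this scale understate those of low genes. Taar values of control replicate 2 were left out of the fit. In simulated data for this comparison (12502 genes) the fit called 45 of 100 genes changed by 2 on the log2 scale. It called 87 of 100 genes changed by 4, and 6 unchanged genes. Across controls, tested members had a median coefficient of variation of 120%, against 66.2% for all tested genes. The simulated rates therefore cannot be read as rates for the receptors. Positions and transcripts are from GENCODE M21. The RefSeq window table held 43 members, of which 42 windows were set at the start codon, so no promoter was examined. A withheld sequence is not reported here. Tables were made with Python 3.11.15, pandas 2.3.3 and numpy 2.4.6.

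Members and gene lists were chosen with earlier results of these data known. Named receptors were the 10 with the highest control mean, the 5 most and 5 least negative tested, any called, the 3 highest in Taar5+ and in the Taar6 line control, and the first and last by position. Other receptors are named where a count or library singles them out, after their values were seen.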

Additional observations from a re-analysis of the deposited data

Results flagged for a closer look

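The 44 groups of values checked were named receptors and library totals, in Taar5+ libraries and in controls. Of these, 12 held a library set apart from the rest of its group by Dixon's criterion. For independent groups of normal values, chance gives about 1 in 20, or 2.2. These TPM are skewed with many at 0, and the groups share libraries, so the 12 cannot be set against chance. A library that alone is above 0 meets the criterion by construction. The library set apart was Taar5+ replicate 5 in 9 of the 12. There the summed member TPM was 348, with the next library at 101. Of single receptors in that library, Olfr788 was at 22.3 TPM (next 1.35), Olfr812 at 14.1 (next 1.69), Olfr805 at 12.0 (next 0.326) and Olfr777 at 36.7 (next 1.02). Olfr821 at 2.85 TPM, Olfr808 at 4.57, Olfr763 at 0.441 and Olfr827 at 14.6 were above 0 there and at 0 in the other 6. Taar5+ replicate 6 stood apart for Olfr820, at 55.7 TPM (next 17.6). Among controls, replicate 7 stood apart for Olfr788 at 199 TPM (next 87.2), and replicate 8 for Olfr821 at 135 TPM (next 54.9).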

How the results depend on the processing

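The number of genes of any kind past an adjusted p of 0.05 was 21, and 0 of them were members. It was 109 with quantile normalization (5 members), 1349 with array weights (32 members) and 337 without control replicate 2 and Taar5+ replicate 5 (11 members), the last chosen after seeing the data. Leaving out 1 library at a time gave 16 to 148 genes and 0 to 5 members. The highest count of members was 5, without control replicate 2 (148 genes). It was 1 without control replicate 4 (31 genes) and 0 with any other single library left out. Without Taar5+ replicate 5 there were 66 genes and 0 members. The median log2 fold change of tested members ran from -2.68 to -2.17, the difference in log2 member sum from -5.14 to -3.56 and the difference in OR share from -2.09 to -0.96 percentage points, or -2.59 without control replicate 2 and Taar5+ replicate 5. Whether libraries of the same number share animals is not stated. The correlation of same-numbered deviations ran from -0.00617 to 0.275 and was over 0.1 in 5 of 7 pairs, and 4 of 7 libraries matched their own number best, a hint of pairing from the data that did not hold for every pair, so the libraries were not treated as paired. A replicate block gave 13 genes and 0 members. Of 405 values of the 17 named tested receptors under 27 other settings, 371 kept their direction and side of the threshold, 34 newly passed and 0 reversed. A receptor has no value in a setting where it did not meet the filter. The filter partly fixed the direction and the settings share most libraries, so these counts give no independent support. The median of all genes was 0.02 in the main setting, -0.17 without control replicate 2 and -0.16 with array weights. Depth is unknown, so a receptor listed at 0 may have been missed.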
